A study of Mus musculus with 4 samples.

Results

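The genes of the myelin sheath studied here were Mbp, Mog, Mag, Mobp, Cnp, Opalin, Cldn11, Mal and Ermn, 9 of the 31053 gene rows in the deposited matrix. They were taken by symbol, and their unique molecular identifier (UMI) counts were summed per library within each cell type and each neuron population of the authors' annotation. Nuclei came from the mediobasal hypothalamus of wild-type mice kept on chow with free access to food. The mice received insulin or saline, and the labels name 2 Insulin and 2 Saline samples. The labels give no dose, route, time, sex, age or number of mice per library. Nuclei were isolated, cleaned by fluorescence-activated sorting and sequenced with the 10x Genomics 3′ method. The deposited annotation ties each nucleus to a treatment and a sequencing run, so that the 4 libraries are Insulin of run 230, Insulin of run 232, Saline of run 230 and Saline of run 232.

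Myelin is the layered membrane that oligodendrocytes wrap around axons, and in the adult brain the genes of its proteins serve as markers of that cell type. Oligodendrocytes form from dividing precursor cells through a short committed stage in which the transcription factors SOX10 and MYRF turn on many myelin genes. Mbp encodes the myelin basic protein that holds the cytoplasmic faces of the membrane together, and Mobp another small basic protein of compact myelin. Mog encodes a protein of the outermost surface of the sheath, Mag an adhesion protein of its innermost surface facing the axon, and Cldn11 the claudin that forms tight junctions between the layers. Cnp encodes an enzyme of the cytoplasmic channels of the sheath, Mal a proteolipid of membrane rafts that also acts in epithelia, Opalin a membrane glycoprotein of oligodendrocytes, and Ermn a cytoskeletal protein of mature oligodendrocytes.

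The start regions of 4 members are shown because each holds a short core motif of SOX10, of MYRF or of both. Each runs 300 bases, with 250 before and 50 after the annotated start, 5′ to 3′ on the gene's strand, from RefSeq on GRCm38.p6. Capitals mark the MYRF core CTGGCAC or its reverse complement GTGCCAG. They also mark the SOX core ACAAAG or its reverse complement CTTTGT, and in Opalin the E-box CAGCTG. The windows are Cnp at chr11:100574689-100574988 (+), Mag at chr7:30914814-30915113 (-), Opalin at chr19:41077064-41077363 (-) and Mobp at chr9:120149492-120149791 (+).
Cnp: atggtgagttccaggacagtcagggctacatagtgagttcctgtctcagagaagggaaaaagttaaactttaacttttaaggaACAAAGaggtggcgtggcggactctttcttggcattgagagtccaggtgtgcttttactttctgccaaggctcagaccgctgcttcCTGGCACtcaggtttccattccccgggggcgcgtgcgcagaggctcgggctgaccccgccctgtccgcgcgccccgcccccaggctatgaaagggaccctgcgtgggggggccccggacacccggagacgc
Mag: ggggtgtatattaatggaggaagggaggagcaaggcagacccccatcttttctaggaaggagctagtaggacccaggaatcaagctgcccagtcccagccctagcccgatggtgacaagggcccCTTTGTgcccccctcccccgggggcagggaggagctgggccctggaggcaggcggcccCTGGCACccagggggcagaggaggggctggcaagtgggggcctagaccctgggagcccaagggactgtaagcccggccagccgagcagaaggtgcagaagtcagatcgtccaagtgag
Opalin: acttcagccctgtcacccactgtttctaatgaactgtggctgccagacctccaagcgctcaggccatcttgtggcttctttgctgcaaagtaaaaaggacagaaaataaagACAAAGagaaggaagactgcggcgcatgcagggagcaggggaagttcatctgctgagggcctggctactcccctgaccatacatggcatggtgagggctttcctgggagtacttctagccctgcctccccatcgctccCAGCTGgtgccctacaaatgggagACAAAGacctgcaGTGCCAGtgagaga
Mobp: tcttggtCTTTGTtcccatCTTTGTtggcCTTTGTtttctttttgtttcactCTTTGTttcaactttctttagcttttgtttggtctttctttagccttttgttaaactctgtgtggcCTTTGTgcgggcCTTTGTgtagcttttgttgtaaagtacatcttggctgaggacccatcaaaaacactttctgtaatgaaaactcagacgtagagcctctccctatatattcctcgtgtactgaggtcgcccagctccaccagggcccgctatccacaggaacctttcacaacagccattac

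Both strands were searched in the start regions of 8 members, and no 2 matches shared a base. The start region of Mbp was not searched. CTGGCAC was present in the windows of Cnp, Mag and Opalin, 3 of 8 members, and in 5.0% of 27025 promoters of the same length. ACAAAG was present in Cnp, Mag, Mobp and Opalin, 4 of 8 members, and in 18.7% of all promoters. The Mobp window held 6 matches to it, all on the opposite strand. ACAATG, a further SOX core, was present in the Ermn window and in 12.8% of all promoters. CAGCTG was present in the Opalin window and in 16.1% of all promoters. TATAAA was present in 0 of 8 members and in 14.2% of all promoters. A match is a description of letters and not a shown binding site. Annotated genes overlap some members: Gm38642 lies over Mobp on the same strand, and Dnajc7 over Cnp and Galnt5 over Ermn on the opposite strand. Each of these 3 overlapping genes has its own row in the matrix. The sources used here do not say how strand and overlap were treated in counting. Whether reads of the overlapping gene entered a member's count was not tested.

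The annotation covered 36523 nuclei, with 8352 and 9796 in the Insulin libraries and 9473 and 8902 in the Saline libraries, and 63590421 to 71391593 UMIs per library. Run and sex coincided: in both libraries of run 232 Xist was at 1614 to 1713 CPM (UMIs scaled to a common library total) and Uty at 1.02 to 1.4 CPM, against 4.53 to 4.88 CPM and 175 to 177 CPM in run 230. Cell types are the authors' clusters, made from the same counts, and 318 barcode sequences occurred in more than 1 library. For 7 of 8 types the annotated name held the highest sum of its own markers. In the nuclei annotated Endothelial, the endothelial list summed to 303 ± 43.2 CPM (SD, n = 4) with Cldn5 at 1.69, Slco1a4 at 0.822 and Cdh5 at 0.319 CPM, while the list for ependymal cells and tanycytes summed to 3590 ± 239 CPM. The same endothelial list summed to 4392 ± 255 CPM in the nuclei annotated Mural Cell, beside 3228 ± 498 CPM for the mural list. Both annotations are therefore named as deposited.

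Oligodendrocytes numbered 795 and 641 nuclei in the Insulin libraries and 732 and 753 in the Saline libraries, 2921 in all. They held 63.9% of the 9 genes' UMIs in 8.0% of annotated nuclei. Neurons, 63.7% of nuclei, held 19.0% of these UMIs, and the 423 nuclei annotated as doublets held 5.41%. The 9 genes summed to 9372 ± 391 CPM in oligodendrocytes (SD, n = 4). Mbp had at least 1 UMI in 99.3% of oligodendrocyte nuclei, Mobp in 91.2%, Mog in 89.5%, Mag in 81.3%, Mal in 67.1%, Cldn11 in 62.8%, Ermn in 49.5%, Cnp in 49.0% and Opalin in 39.3%. The median oligodendrocyte nucleus had 2354 UMIs. After thinning every nucleus to 1000 UMIs, the ratio of variance to mean between oligodendrocyte nuclei was 1.38 ± 0.0697 for Mbp and 1.32 ± 0.0580 for Mobp (SD, n = 4), and between 1.05 and 1.15 for the other 7. A ratio of 1 is what counting error alone gives. The ratio also nears 1 for any gene with few counts, and the thinned mean was 3.70 UMIs for Mbp but 0.241 for Opalin, so the ratios do not rank the members by their variation between nuclei.

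Outside oligodendrocytes each of the 9 genes was lower than in oligodendrocytes in every library, and no range overlapped that of oligodendrocytes. This is a description, since such genes define the type. The summed level was 594 ± 255 CPM in Mural Cell nuclei, 523 ± 202 in ependymal nuclei (annotated Ependymo), 468 ± 81.7 in precursors (OPC), 403 ± 90.8 in microglia, 353 ± 121 in the nuclei annotated Endothelial, 292 ± 77.2 in astrocytes and 93.3 ± 7.89 in neurons (SD, n = 4 each). In that order the ranges of neighbouring types overlapped, except that every astrocyte library lay above every neuron library. As a percent of the oligodendrocyte level of the same library, the sums were 6.32 ± 2.60% in Mural Cell nuclei, 5.56 ± 2.03% in ependymal nuclei, 5.0 ± 0.905% in precursors, 4.31 ± 0.982% in microglia, 3.74 ± 1.20% in the nuclei annotated Endothelial, 3.10 ± 0.735% in astrocytes and 0.994 ± 0.0490% in neurons. The scale matters for this order, because neuron nuclei are deeper than the others. Counted as UMIs per nucleus, neurons held 0.894 with a median depth of 8445 UMIs, against 1.02 in astrocytes with a median depth of 3148 UMIs and 24.0 in oligodendrocytes. On that scale the sums were 11.6 ± 0.706% of the oligodendrocyte value in precursors, 11.6 ± 5.28% in ependymal nuclei, 7.62 ± 2.42% in microglia, 6.47 ± 2.95% in Mural Cell nuclei, 5.44 ± 2.17% in the nuclei annotated Endothelial, 4.15 ± 1.24% in astrocytes and 3.77 ± 0.277% in neurons. Mural Cell nuclei had the highest mean by CPM, but not by UMIs per nucleus. Their rank by CPM rests on Mal, which made up 34.8 ± 13.2% of the 9 genes' UMIs there, against 5.88 ± 1.19% in oligodendrocytes. Mal was at 191 ± 58.2 CPM in Mural Cell nuclei, 27.4 ± 19.9 in ependymal nuclei and 14.8 ± 4.34 in precursors.

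**Figure D1:**
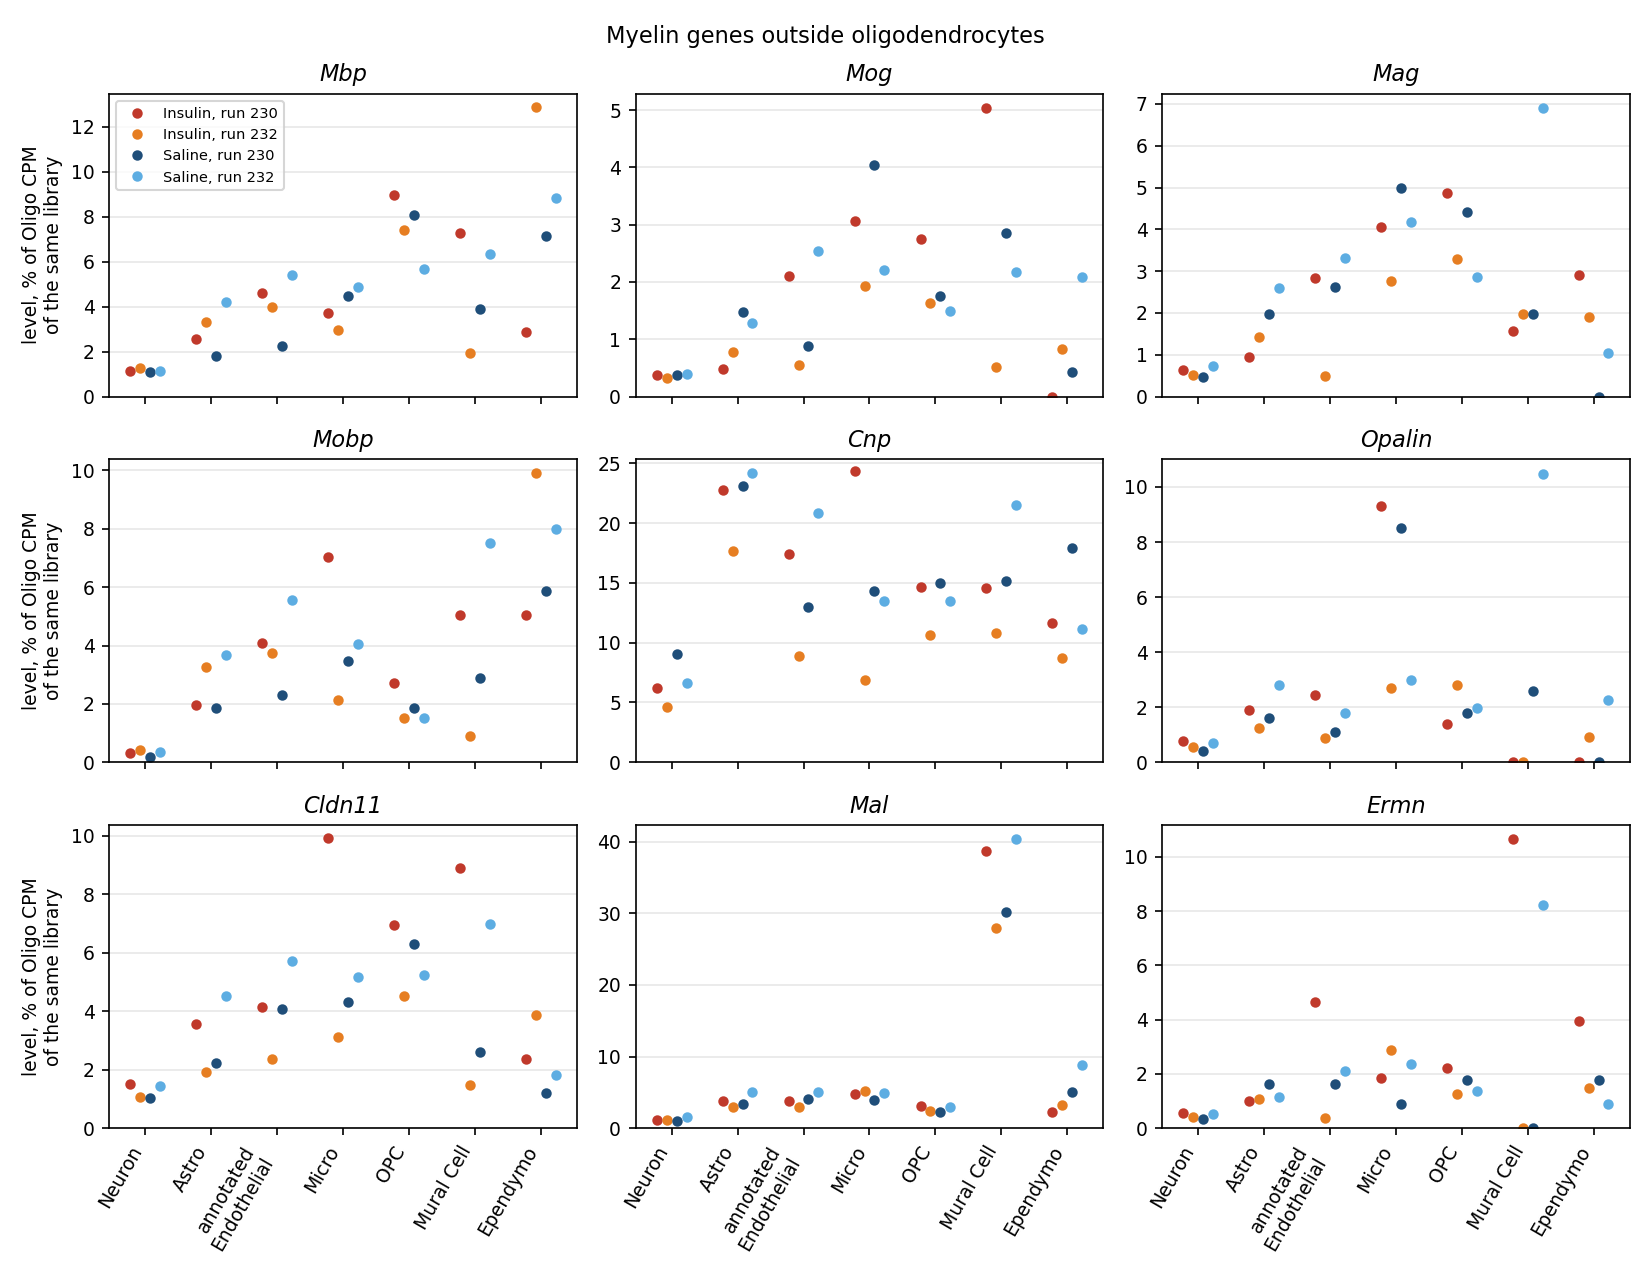
Level of each of the 9 genes in 7 cell types, as a percent of its CPM in oligodendrocytes of the same library (vertical axis, a different scale in each panel). Points are the 4 libraries. Neurons lay lowest for most genes, Cnp was at 17.6 to 24.1% in astrocytes, and Mal was at 27.9 to 40.4% in Mural Cell nuclei.

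The members did not keep 1 ratio to each other across types. Cnp had the highest percent of its oligodendrocyte level of all 9 members in all 4 libraries of neurons, astrocytes, precursors, microglia and the nuclei annotated Endothelial, and in 3 of 4 libraries of ependymal nuclei. In astrocytes Cnp was at 67.9 and 61.4 CPM in the Insulin libraries and 56.6 and 73.6 CPM in the Saline libraries, against 299, 348, 245 and 305 CPM in oligodendrocytes of the same libraries. In neurons Cnp was at 18.5 and 16.2 CPM in the Insulin libraries and 22.2 and 20.3 CPM in the Saline libraries, which is 4.64 to 9.08% of the oligodendrocyte level. Cnp made up 20.9 ± 4.25% of the 9 genes' UMIs in neurons and 22.9 ± 3.93% in astrocytes, against 3.18 ± 0.341% in oligodendrocytes (SD, n = 4). Mobp went the other way in neurons, where it was at 5.06 and 6.22 CPM in the Insulin libraries and 2.83 and 5.20 CPM in the Saline libraries, 0.171 to 0.413% of its oligodendrocyte level. Its share of the 9 genes' UMIs was 5.12 ± 1.29% in neurons, against 16.7 ± 1.59% in oligodendrocytes.

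Mbp was at 44.6 and 48.8 CPM in neurons of the Insulin libraries and 39.6 and 44.4 CPM in neurons of the Saline libraries, against 4009, 3866, 3690 and 3969 CPM in oligodendrocytes. In precursors Mbp was at 360 and 286 CPM in the Insulin libraries and 298 and 225 CPM in the Saline libraries, 5.68 to 8.97% of the oligodendrocyte level. It made up 62.3 ± 2.69% of the 9 genes' UMIs in precursors, against 41.5 ± 0.948% in oligodendrocytes. Mal in Mural Cell nuclei was at 199 and 188 CPM in the Insulin libraries and 117 and 259 CPM in the Saline libraries, against 515, 673, 387 and 641 CPM in oligodendrocytes. Every Mural Cell library lay above every library of the next type in order for Mal, the ependymal nuclei, and below every oligodendrocyte library. Mobp in ependymal nuclei was at 81.0 and 149 CPM in the Insulin libraries and 97.4 and 118 CPM in the Saline libraries, 5.05 to 9.89% of the oligodendrocyte level. The ependymal values of Insulin run 230 rest on 16 nuclei.

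For the remaining members the types outside oligodendrocytes were hard to order. Mog and Mag had their highest mean in microglia and Cldn11 in precursors. Opalin, at 246 ± 38.7 CPM in oligodendrocytes, was listed at 0 in Mural Cell nuclei of both Insulin libraries and in ependymal nuclei of both run 230 libraries. Ermn was at 0 in Mural Cell nuclei of Insulin run 232 and Saline run 230, Mog in ependymal nuclei of Insulin run 230 and Mag in ependymal nuclei of Saline run 230. A count of 0 allows 3 UMIs by counting error. The ependymal sums held only 86396 UMIs in Insulin run 230 and 205333 in Saline run 230, so a 0 does not show absence. From microglia down to ependymal nuclei the ranges of neighbours overlapped for Mog, Mag and Opalin.

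Each of the 7 types was compared with the mean of the other 6, leaving oligodendrocytes out, in edgeR's quasi-likelihood test over the 4 libraries with library as a block. The annotation rests on the same counts, so these adjusted p-values are not independent of the types. With library as a block, they weigh how the type differences vary between libraries, not the spread of library means. Of 63 member tests, 56 passed the filter on low counts, since Opalin did not. In 11 a member was higher and in 9 lower, where 24.8% of all gene tests were higher and 21% lower. Neurons were lower for all 8 members tested, where 29.9% of genes were lower in neurons. The neuron difference was largest for Mobp, at -3.41 ± 0.20 on the log2 scale (SE; adjusted p = 2.48e-15, edgeR), and smallest for Cnp, at -1.03 ± 0.12 (adjusted p = 4.26e-09, edgeR). Mbp, Mog, Mag, Ermn, Mal and Cldn11 lay between them, from -2.07 to -1.58. These differences are per UMI of the type: counted per nucleus, Mbp was at 0.427 ± 0.0464 UMIs in neurons and 0.401 ± 0.190 in astrocytes (SD, n = 4).

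Cnp was higher in astrocytes, by 1.02 ± 0.11 on the log2 scale (SE; adjusted p = 4.24e-09, edgeR). Mal was higher in Mural Cell nuclei by 3.13 ± 0.13 (adjusted p = 2.58e-18, edgeR). Precursors were higher for Mbp by 1.24 ± 0.20 (adjusted p = 9.54e-06), Mag by 1.14 ± 0.27 (adjusted p = 0.000983) and Cldn11 by 0.91 ± 0.20 (adjusted p = 0.000459) in the same edgeR fit, while Mal was lower there, at -0.77 ± 0.15 (adjusted p = 9.71e-05). Of all genes, 22.7% were higher and 19.4% lower in precursors. The mean of the other types includes neurons, lowest for each of these members, so a call does not put a type first. Mag was at 31.5 ± 7.11 CPM in precursors and 32.5 ± 6.59 CPM in microglia, and Cldn11 at 26.3 ± 5.53 and 26.2 ± 15.4 CPM. For Mal that mean includes Mural Cell nuclei at 191 ± 58.2 CPM, against 14.8 ± 4.34 CPM in precursors and 6.77 ± 2.52 CPM in neurons. Ependymal nuclei were higher for Mobp by 1.94 ± 0.28 (adjusted p = 1.01e-06) and Mbp by 1.35 ± 0.24 (adjusted p = 2.73e-05, edgeR). The median of all genes was at -0.13 in the Mural Cell and ependymal contrasts. Of the 20 calls, 15 passed with any 1 library left out. Mog in precursors (log2 0.76 ± 0.29; adjusted p = 0.0330, edgeR) gave adjusted p-values of 0.115 without Insulin run 230, 0.175 without Insulin run 232 and 0.0546 without Saline run 230. Mog in microglia (log2 1.03 ± 0.36; adjusted p = 0.0249, edgeR) gave 0.0954 without Insulin run 232 and 0.152 without Saline run 230. Mobp in the nuclei annotated Endothelial (log2 0.59 ± 0.22; adjusted p = 0.0345, edgeR) gave 0.0587 without Saline run 230 and 0.127 without Saline run 232. Its mean there, 60.7 ± 18.4 CPM, lay below those of ependymal nuclei (111 ± 29.3 CPM), microglia (65.6 ± 34.1 CPM) and Mural Cell nuclei (63.4 ± 42.1 CPM). Of all genes, 22.5% were higher in the nuclei annotated Endothelial. Ermn in Mural Cell nuclei (log2 1.52 ± 0.60; adjusted p = 0.0456, edgeR) gave 0.602 without Saline run 232, and neither it nor Ermn in neurons passed the filter without Insulin run 230.

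The UMIs outside oligodendrocytes were spread over nuclei in different ways in different types. In neurons 46.3% of nuclei had no UMI of the 9 genes and 45.9% had 1 or 2, and 24 of 23261 nuclei had 10 or more. Those 24 nuclei held 2.78% of the neuron UMIs of these genes. In precursors 47.8% of nuclei had none, close to the neuron share, yet 53 of 876 nuclei had 10 or more and held 72.5% of the UMIs. The share in such nuclei was 65.6 to 78.5% in each of the 4 precursor libraries. It was 56.0% in microglia (16 of 442 nuclei), 40.0% in Mural Cell nuclei (7 of 362), 33.5% in ependymal nuclei (19 of 274), 27.1% in the nuclei annotated Endothelial (19 of 1441), 21.2% in astrocytes (63 of 5407) and 97.7% in oligodendrocytes (2692 of 2921). In astrocytes it differed between libraries, at 3.69 and 11.4% in the Insulin libraries and 35.1 and 29.5% in the Saline libraries, and Mural Cell nuclei of Insulin run 232 had 0 such nuclei. With every nucleus thinned to 1000 UMIs, the ratio of variance to mean was 3.94 in precursors, 2.90 in Mural Cell nuclei, 2.55 in microglia, 1.83 in the nuclei annotated Endothelial, 1.82 in astrocytes, 1.76 in ependymal nuclei, 1.06 in neurons and 1.4 in oligodendrocytes. The thinned mean was 0.374 UMIs in precursors and 0.105 in neurons, against 9.09 in oligodendrocytes. A mean as low as that of neurons holds the ratio near 1, so the ratios are not compared between types of unlike mean. In precursors a few nuclei held most of the signal.

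**Figure D2:**
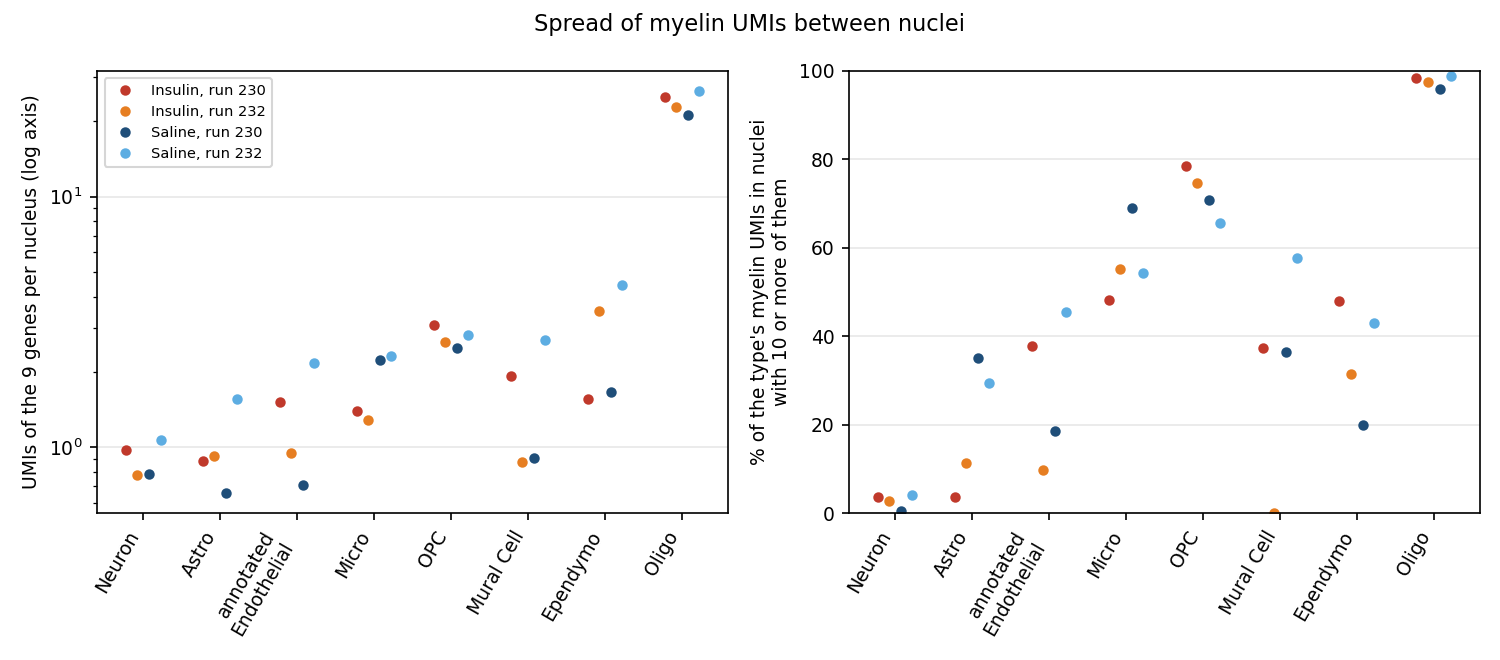
UMIs of the 9 genes per nucleus (left, log axis) and the percent of a type's UMIs of these genes that lay in nuclei with 10 or more of them (right), by cell type. Points are the 4 libraries. Points of the right panel run from 0% in Mural Cell nuclei of Insulin run 232 to 98.7% in oligodendrocytes of Saline run 232. Pooled over the libraries, the share was 2.78% in neurons, 72.5% in precursors and 97.7% in oligodendrocytes.

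The share of nuclei with an Mbp UMI was 28.2 to 32.2% across the 4 libraries of neurons, at a median depth of 8445 UMIs, against 98.4 to 99.9% of oligodendrocytes at 2354 UMIs. After thinning to 1000 UMIs it was 4.26 to 5.11% in neurons, 5.25 to 11.2% in astrocytes and 8.40 to 10.3% in precursors, against 94.9 to 96.4% in oligodendrocytes. Thinning left out 42 neurons, 25 astrocytes, 1 precursor and 40 oligodendrocytes with fewer UMIs. For Cnp the thinned share was 1.65 to 2.66% in neurons and 5.71 to 7.43% in astrocytes, against 22.4 to 29.7% in oligodendrocytes. Neurons do not form myelin, and the source of these UMIs was not tested.

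Nuclei that the authors annotated as doublets had 1758 and 719 CPM of the 9 genes in the Insulin libraries and 1084 and 1067 CPM in the Saline libraries. Whether the nuclei of other types with 10 or more UMIs of the 9 genes held RNA of more than 1 cell was not tested.

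Precursors, Mural Cell nuclei and unassigned nuclei were then split by other genes, with splits chosen after the values were seen, so that no test is given. Bmp4 and Enpp6 mark committed precursors and newly formed oligodendrocytes, and 52 of 876 precursor nuclei had a UMI of either. In these 52 nuclei Mbp was at 3913 and 2950 CPM in the Insulin libraries and 2636 and 2177 CPM in the Saline libraries. In the other 824 it was at 84.6 and 105 CPM in the Insulin libraries and 94.5 and 65.1 CPM in the Saline libraries. The ratio was 27.9 to 46.2 within each library, and 36 of the 52 nuclei but 17 of the 824 had 10 or more UMIs of the 9 genes. The nuclei with Bmp4 or Enpp6 had a median of 6956 UMIs, against 4810 in those without. Mag was at 338 and 208 CPM in the 52 nuclei of the Insulin libraries and 306 and 151 CPM in those of the Saline libraries, while Opalin was at 0 in both Insulin libraries, at 15.3 CPM in Saline run 230 and at 21.6 CPM in Saline run 232. Ermn was at 0 in 3 of those 4 libraries. The Opalin values rest on 1 UMI in Saline run 230 and 3 UMIs in Saline run 232. The nuclei with Bmp4 or Enpp6 held 88676 and 91527 UMIs in the Insulin libraries. A count of 0 allows 3 UMIs by counting error, so a 0 here does not show absence. In each library Mbp in the nuclei with Bmp4 or Enpp6 lay below its oligodendrocyte level of the same library. That level was 4009 and 3866 CPM in the Insulin libraries and 3690 and 3969 CPM in the Saline libraries. The values were closest in Insulin run 230, at 3913 against 4009 CPM. Mog was at 159 CPM over the 52 nuclei, against 1258 ± 108 CPM in oligodendrocytes, and Mobp at 46.9 CPM, against 1563 ± 84.5 CPM.

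Among Mural Cell nuclei, 139 had 3 or more UMIs of the 8 endothelial markers and 223 had fewer. Mal was at 301 and 337 CPM in the 139 nuclei of the Insulin libraries and 226 and 493 CPM in those of the Saline libraries. In the other 223 it was at 58.9 and 21.7 CPM in the Insulin libraries and 28.8 and 49.6 CPM in the Saline libraries. The ratio was 5.12 to 15.5 within each library. Mbp did not divide that way, with ratios of 0.310 to 4.27. Splitting by mural markers gave no single direction. In the 224 nuclei with 3 or more, Mal was at 170 and 196 CPM in the Insulin libraries and 134 and 181 CPM in the Saline libraries. In the 138 nuclei with fewer it was at 292 and 176 CPM in the Insulin libraries and 86.8 and 403 CPM in the Saline libraries. Unassigned nuclei also held Mal: it was at 563 CPM in Insulin run 230 and 476 CPM in Saline run 230, against 52.0 CPM in Insulin run 232 and 161 CPM in Saline run 232. In run 230, 145 Insulin and 132 Saline unassigned nuclei had a UMI of the epithelial genes Epcam, Krt7, Krt8, Krt18 or Krt19, with Mal at 639 and 570 CPM and Mog at 0 in both. In run 232 only 14 Insulin and 3 Saline unassigned nuclei had one.

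**Figure D3:**
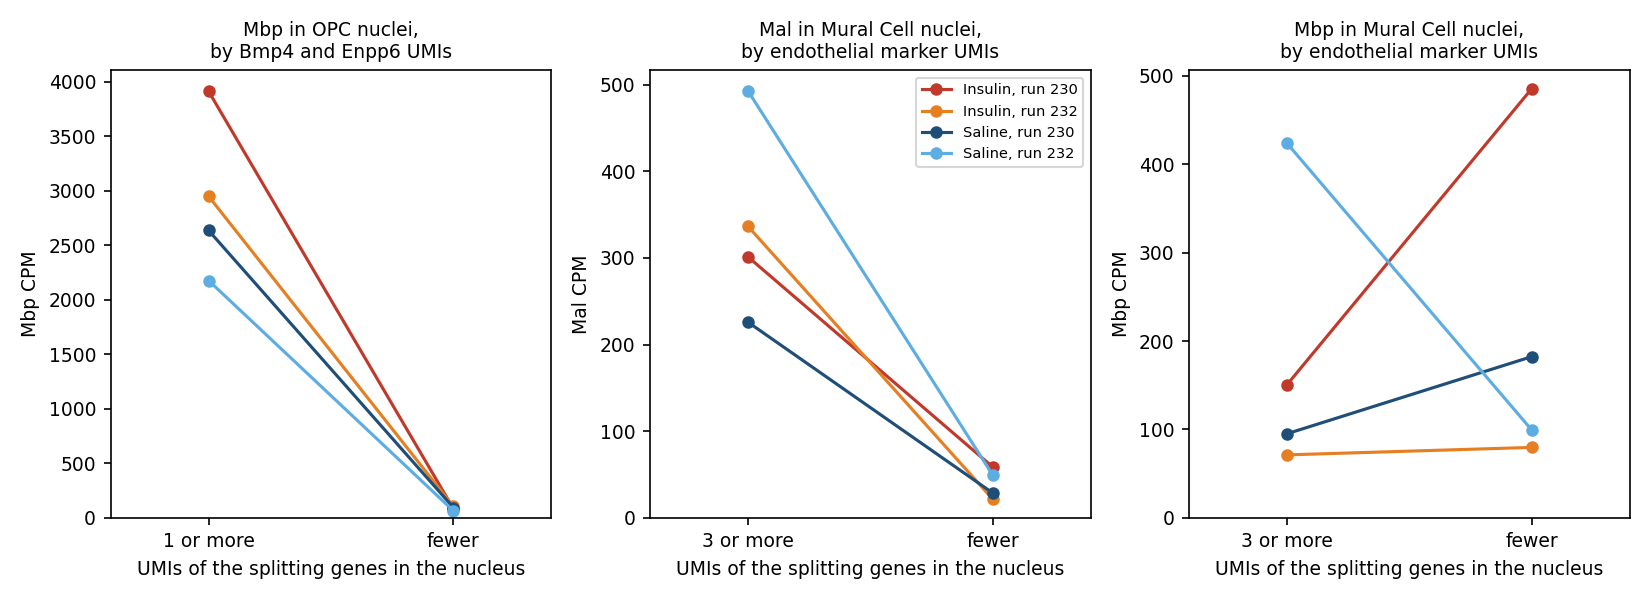
CPM of Mbp in precursor nuclei with and without a UMI of Bmp4 or Enpp6 (left), and of Mal (middle) and Mbp (right) in Mural Cell nuclei with 3 or more and with fewer UMIs of 8 endothelial markers. Lines join the 2 subsets of a library. Mbp was 27.9 to 46.2 times as high in the first precursor subset, and Mal 5.12 to 15.5 times as high in the first Mural Cell subset.

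Neurons were divided by the authors into 37 populations, of which 35 had at least 10 nuclei in every library. Over these 35 the summed CPM of the 9 genes ranged 5.96-fold, with a median of 96.5 CPM. It was highest in M1.GABA at 307 ± 105 CPM, M33.Glp1r/Ebf1 at 128 ± 22.9 CPM and M31.Th at 123 ± 14.6 CPM (SD, n = 4). It was lowest in M3.Pmch at 51.5 ± 17.3 CPM, M10.Sim1|Trh at 67.9 ± 4.66 CPM and M11.GLUT at 69.5 ± 12.3 CPM. M1.GABA nuclei were also the shallowest, with a median of 1336.5 UMIs, and M3.Pmch the deepest of the 35, with 13308.5 UMIs. As UMIs per nucleus the range was 2.24-fold, with M1.GABA lowest at 0.497 and the highest population at 1.11. Across the 35 populations the summed CPM had a Pearson correlation of -0.82 with median depth, and the UMIs per nucleus one of 0.44. The points share libraries and depth enters the CPM, so both are descriptions. M1.GABA stands apart in depth, since the next shallowest population, M32.Pdyn/Grp, had a median of 5636.5 UMIs. Neither correlation was computed without M1.GABA. M1.GABA had the highest mean CPM of each of the 9 genes, and M3.Pmch the lowest, or a shared 0, for 6 of them. Most of these ranks rest on few UMIs. Over the 4 libraries M1.GABA had 2 UMIs each of Ermn and Opalin, 4 of Mog, 5 of Cldn11 and 6 of Mobp, each with an SD above its mean. It had 28 UMIs of Mbp and 17 of Cnp, and M3.Pmch had 2 of Mog and 3 of Mal.

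**Figure D4:**
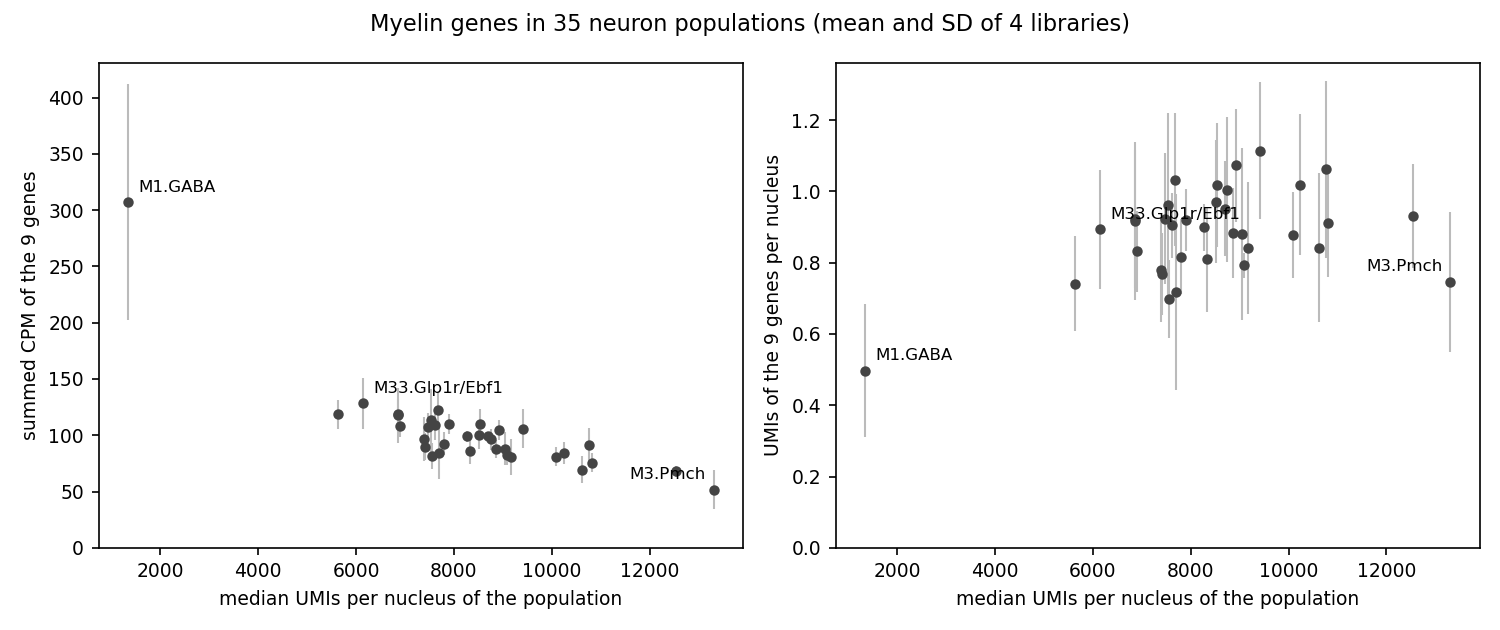
Summed CPM of the 9 genes (left) and their UMIs per nucleus (right) in 35 neuron populations, against the population's median UMIs per nucleus. Points are means and bars SDs of 4 libraries. CPM is lower in deeper populations, with a correlation of -0.82, while UMIs per nucleus has one of 0.44. Both include M1.GABA, the shallowest population at 1336.5 UMIs.

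In edgeR's test of each population against the mean of the others, 245 of 315 member tests passed the filter, with Opalin and Ermn left out by it. A member was higher in 17 and lower in 14, where 13% of all gene tests were higher and 8.16% lower. Mbp gave 17 of these 31 calls, 9 higher and 8 lower. Among the populations that passed the threshold, its difference was largest upward in M31.Th, by 0.69 ± 0.11 on the log2 scale (SE; adjusted p = 6.84e-08, edgeR), and downward in M3.Pmch, at -1.49 ± 0.26 (adjusted p = 1.20e-06, edgeR). M21.Nfix was higher for Mog by 1.11 ± 0.26 (adjusted p = 0.000523) and Mobp by 0.95 ± 0.25 (adjusted p = 0.00226, edgeR). M1.GABA was higher for Mag by 2.16 ± 0.67 (adjusted p = 0.0250) and Cnp by 1.43 ± 0.43 (adjusted p = 0.0196, edgeR), in a contrast where the median of all genes was at -0.23. M20.GABA was higher for Cldn11 by 0.71 ± 0.21 (adjusted p = 0.00788, edgeR). M34.Esr1/Npy1r was lower for Mog at -1.38 ± 0.52 (adjusted p = 0.0461) and M5.Snypo2 for Mag at -1.33 ± 0.50 (adjusted p = 0.0436, edgeR). Mal passed the threshold in no population. Of the 31 calls, 10 passed with any 1 library left out, among them Mbp in M31.Th, M3.Pmch and M11.GLUT and both M21.Nfix calls. Leaving out a single library ended 13 calls for Insulin run 230, 12 for Insulin run 232, 13 for Saline run 230 and 14 for Saline run 232. In edgeR's leave-one-out fits Mag in M1.GABA had adjusted p-values of 0.131 without Insulin run 232, 0.109 without Saline run 230 and 0.0895 without Saline run 232, and Cnp in M1.GABA of 0.192 without Insulin run 230, 0.0717 without Saline run 230 and 0.0881 without Saline run 232. Cldn11 in M20.GABA had 0.103 without Insulin run 230 and 0.354 without Saline run 230. Mog in M34.Esr1/Npy1r had 0.188 without Insulin run 232, 0.173 without Saline run 230 and 0.205 without Saline run 232. Mag in M5.Snypo2 had 0.162 without Insulin run 230, 0.152 without Insulin run 232 and 0.149 without Saline run 232.

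Across 32 points, the 8 types in each of 4 libraries, 11468 genes were compared with the summed 9 genes by the Pearson correlation of log2 CPM. Among the genes most like the sum were Ppfibp2 at 0.93 and Kif13b, Sec14l5 and Erbin, each at 0.92. Each member correlated with the sum of the other 8 at 0.81 (Mal) to 0.94 (Mbp). Across the 35 neuron populations a different set led. Mt1, a metallothionein, was at 0.92, Apoe, an apolipoprotein made by astrocytes, at 0.91, and Ntsr2 at 0.90, with Clu and Gpr37l1 at 0.88. There 10248 genes were compared. All of these are descriptions over points that share libraries and depth.

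A list of 40 further oligodendrocyte genes was set beside the 9. Of these, 36 had at least 200 UMIs in oligodendrocytes. Their median level in neurons was 2.50% of the oligodendrocyte level, against 0.608% for the 9 genes. In precursors it was 13.3% for the list and 2.66% for the 9 genes, and in astrocytes 4.28% and 2.69%. The lowest in neurons were Aspa at 0.184%, Gjc3 at 0.214% and Plxnb3 at 0.260%, and the highest were Sirt2 at 20.9%, Tppp at 16.5% and Josd2 at 14.9%. Cnp, at 6.64 ± 1.84% in neurons, lay above the median of that list, and the other 8 members lay under it.

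Insulin was compared with saline first in sums over all annotated nuclei, where fewer cells of a type and less RNA per cell cannot be told apart. Oligodendrocytes were 9.52 and 6.54% of nuclei in the Insulin libraries and 7.73 and 8.46% in the Saline libraries. The means were 8.03 ± 2.10% and 8.09 ± 0.517% (SD, n = 2 each), a difference of -0.0619 percentage points with an exact permutation p of 1, where 0.33 is the smallest this design allows. In edgeR's quasi-likelihood test 0 of the 9 genes passed an adjusted p of 0.05 over all nuclei, where 0% of 21190 genes did. No member was separated between the groups there, where 8.44% of genes were higher and 10.2% lower in both Insulin libraries, and 0 had an unadjusted p under 0.05 by edgeR or by DESeq2. The 4 libraries may be single mice or pools, so p-values weigh only the spread between them.

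In oligodendrocytes the 9 genes differed between groups by -0.057 to 0.24 on the log2 scale, with a median of 0.054 beside 0.0054 over all 11476 genes tested. None passed the threshold, where 0% of genes did, 0 had an unadjusted p under 0.05 by edgeR or DESeq2, and all 9 overlapped between groups, where 12.3% of genes were higher and 13.2% lower in both Insulin libraries. Cnp had the largest difference, 299 and 348 CPM in the Insulin libraries against 245 and 305 CPM in the Saline libraries (log2 0.24 ± 0.20, SE). Mbp was at 4009 and 3866 CPM in the Insulin libraries against 3690 and 3969 CPM in the Saline libraries (log2 0.043 ± 0.20, SE). Within each run the Insulin library had the higher value of the pair for Cnp, Opalin and Mal. How many of all genes do so was not computed, so this is not read as a result about these genes. With the run as a block 0 of the 9 genes in oligodendrocytes had an unadjusted p under 0.05 by edgeR.

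In neurons 0 of 9 genes passed, where 0% of 20275 genes did, and 0 had an unadjusted p under 0.05 by edgeR or DESeq2. Mbp, at 44.6 and 48.8 CPM in the Insulin libraries and 39.6 and 44.4 CPM in the Saline libraries, was higher in both Insulin libraries (log2 0.15 ± 0.11, SE), as were 8.74% of genes. Cnp, at 18.5 and 16.2 CPM in the Insulin libraries and 22.2 and 20.3 CPM in the Saline libraries, was lower in both Insulin libraries (log2 -0.30 ± 0.16, SE), as were 11.6% of genes. Within each run the Insulin library had the higher Mbp and Mobp and the lower Cnp of the pair. The share of all genes whose pairs go the same way was not computed, so this is not read as a result about these genes. With the run as a block, Mobp (log2 0.53; unadjusted p = 0.0343, adjusted p = 0.503, edgeR) and Cnp (log2 -0.30; unadjusted p = 0.0369, adjusted p = 0.511, edgeR) had an unadjusted p under 0.05. The change of the neuron level relative to oligodendrocytes of the same library was -0.52 ± 0.17 for Cnp on the log2 scale (SE; unadjusted p = 0.00185, adjusted p = 1, edgeR) and called none of the 9 genes, where 0.00508% of genes were called.

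**Figure D5:**
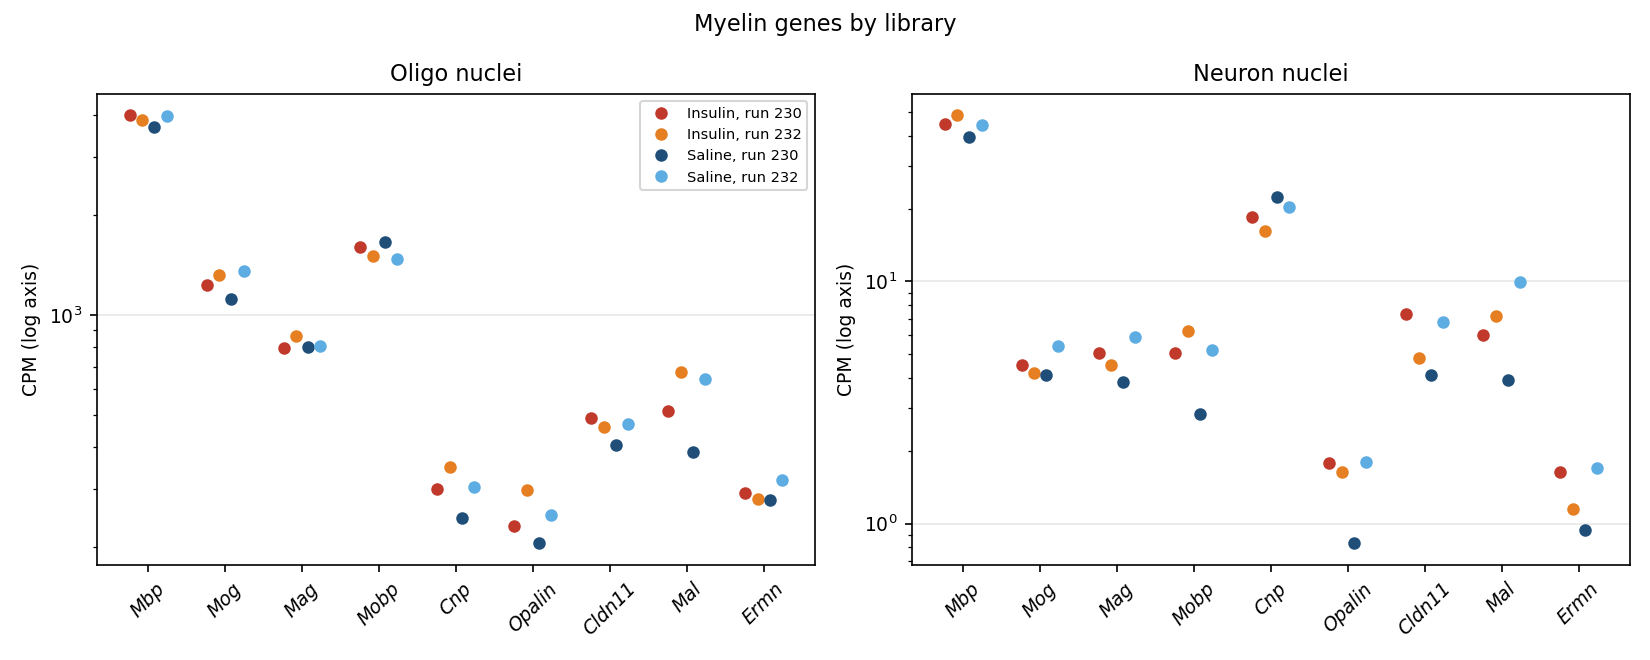
CPM of the 9 genes in oligodendrocytes (left) and neurons (right) by library, on log axes. Insulin libraries stand left of Saline libraries. In oligodendrocytes the groups overlap for all 9 genes; in neurons Mbp lies higher and Cnp lower in both Insulin libraries, and neither passed the test.

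In the other 6 types 0 members passed, where 0% of genes did in each. In astrocytes all 9 members had a negative log2 difference, although that of Mbp was 0.077 with the run as a block. Their median was -0.25 beside 0.0028 over all genes, and 3 of them were lower in both Insulin libraries, as were 10.9% of genes. Mog was at 5.87 and 10.2 CPM in astrocytes of the Insulin libraries and 16.4 and 17.4 CPM in those of the Saline libraries (log2 -1.09 ± 0.32, SE; adjusted p = 1.00, edgeR). Mag was at 7.58 and 12.3 CPM in the Insulin libraries and 15.9 and 20.9 CPM in the Saline libraries (log2 -0.91 ± 0.32, SE; adjusted p = 1.00, edgeR). These 2 had unadjusted p-values of 0.0126 and 0.0243 by edgeR, and DESeq2 also gave 2 under 0.05. With the run as a block, Mog had log2 -1.10 (unadjusted p = 0.00062, adjusted p = 0.170, edgeR). Mag had log2 -0.92 in that fit (unadjusted p = 0.00151, adjusted p = 0.225, edgeR). Astrocyte nuclei with 10 or more UMIs of the 9 genes numbered 3 and 10 in the Insulin libraries and 14 and 36 in the Saline libraries. They held 3.69 and 11.4% of the astrocyte UMIs of these genes in the Insulin libraries and 35.1 and 29.5% in the Saline libraries. Whether the Mog and Mag differences remain without these nuclei was not tested. Precursors had Mog higher in both Insulin libraries, as were 12.9% of genes, and microglia had Mbp and Mag lower in both, as were 14.9% of genes. Without Saline run 232 the log2 difference of Mbp was 0.78 ± 0.20 in astrocytes and 1.01 ± 0.23 in the nuclei annotated Endothelial (SE). Those fits set Insulin libraries of both runs against the single Saline library of run 230. Run and sex coincided, so treatment cannot be told apart from run and sex there. In run 230 astrocytes Mbp was at 102 CPM with Insulin and 66.1 CPM with Saline, and in run 232 at 129 and 166 CPM. In single neuron populations 115 of 315 member tests passed the filter, 3 had an unadjusted p under 0.05 and 0 passed the adjusted threshold, where 0.000835% of gene tests did. The summed percent of the oligodendrocyte level differed between Insulin and Saline by -0.966 to 0.738 percentage points over the 7 types, with exact permutation p-values of 0.667 to 1.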

How the data were processed

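The deposited matrix holds whole-number UMI counts per gene and nucleus, as deposited by the authors. Per the submitters' processing notes, Cell Ranger and the GRCm38 build were used; the version, gene annotation, intron and strand settings are not given in the sources used here. The authors' deposited annotation gave cell type, neuron population, treatment and sequencing run. Its 36534 nuclei included 11 without a matching barcode, and 4633 barcodes without annotation, doublets and unassigned nuclei were kept out of the types. Its library names match no sample title, so libraries are named by treatment and run.

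Counts were summed per library and type or population, with at least 10 nuclei in each library, and divided by the sum of all UMIs for CPM. Tests used edgeR 4.0.16 in R 4.3.3 (quasi-likelihood, TMM scaling, filterByExpr with a minimum count of 10 and total of 15, Benjamini-Hochberg over all genes tested, threshold 0.05), with DESeq2 1.42.0 as an alternative. The other alternatives were no filter, no TMM, a run block and each library left out. Group differences in percents used exact two-sided permutation tests. Thinning drew 1000 UMIs per nucleus. Scripts ran in Python 3.11.15 with numpy 2.4.6, scipy 1.17.1 and pandas 2.3.3, and tests were checked on simulated data. Deviations from group means correlated between libraries of the same run at 0.70 over all nuclei, 0.47 in oligodendrocytes and 0.68 in neurons, so the run pairs the libraries. Each member was to be named with its largest difference in each direction past the threshold, and the populations with the 3 highest and 3 lowest sums. Likeness used genes of at least 10 CPM and a pseudocount of 1; 1 of the genes it ranked is not reported here. The members and lists were chosen with earlier results of these data known. The 95% intervals and limits of a count of 0 cover counting error only.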

Additional observations from a re-analysis of the deposited data

Results flagged for a closer look

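Mbp lay on opposite sides in 2 cell types. It was higher in both Insulin libraries in neurons (log2 0.15) and lower in both in microglia (log2 -0.54), at 148 and 114 CPM in the Insulin libraries and 165 and 193 CPM in the Saline libraries of microglia. Mog was higher in both Insulin libraries in precursors (log2 0.48), at 34.0 and 21.6 CPM in the Insulin libraries and 19.6 and 20.2 CPM in the Saline libraries, and lower in both in astrocytes (log2 -1.09). None of these 4 differences passed the test, and the difference between the types was not tested.

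Barcodes without annotation also held the 9 genes. Their sum was 634 CPM in 733 barcodes of Insulin run 230 and 483 CPM in 1146 barcodes of Insulin run 232, and 393 CPM in 937 barcodes of Saline run 230 and 539 CPM in 1817 barcodes of Saline run 232. A count of 0 would allow 0.302 to 0.383 CPM in these sums, by counting error only. The annotated nuclei of the same libraries held 438 and 384 CPM in the Insulin libraries and 329 and 465 CPM in the Saline libraries. Of the unannotated barcodes 145 and 150 in the Insulin libraries and 109 and 135 in the Saline libraries had 10 or more UMIs of the 9 genes.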

How the results depend on the processing

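For Insulin against Saline, the alternatives were no filter on low counts, the replicate block by sequencing run and each library left out. Under each, 0 of the 9 genes were called in all nuclei, oligodendrocytes, neurons and single populations. DESeq2 also called 0 in all nuclei, oligodendrocytes and neurons, and was not run in single populations. With the replicate block, 0 were called in any type. The sign reversed for Mal in neurons (log2 0.057), Mbp in astrocytes (0.077) and ependymal nuclei (-0.10), Mobp in microglia (-0.021) and Mog over all nuclei (0.014). In the other 6 types leave-one-out fits called 0 to 2. For the summed percent of the oligodendrocyte level, UMIs per nucleus in place of CPM gave 11.6% in precursors, 4.15% in astrocytes, 3.77% in neurons, 7.62% in microglia, 5.44% in the nuclei annotated Endothelial, 6.47% in Mural Cell nuclei and 11.6% in ependymal nuclei. Leaving out the 1% of nuclei with the most UMIs of the 9 genes gave 3.73% in precursors and 0.927% in neurons, and leaving out Mbp gave 3.21% and 0.891%. Of 2 alternatives chosen after seeing the data, leaving out nuclei with 10 or more of these UMIs gave 1.48% in precursors and 2.06% in microglia, and leaving out Cnp and Mal gave 0.788% in neurons. Calls between neuron populations numbered 31, and 19 to 22 in leave-one-out fits, those between types 20, and 17 to 22, with 24 without TMM scaling and 26 without a filter. The oligodendrocyte share difference was -0.0619 points, and -1.55 to 1.43 leaving out 1 library, with 1.43 without Insulin run 232 and 0.304 without Saline run 232. Leaving out each library in turn, with none past the threshold, gave log2 values of both signs in oligodendrocytes for Mog (-0.040 to 0.15), Mag (-0.0029 to 0.094), Mobp (-0.14 to 0.12) and Mal (-0.069 to 0.57). It did so in neurons for Mog (-0.27 to 0.046), Mag (-0.27 to 0.29), Opalin (-0.034 to 1.00), Cldn11 (-0.20 to 0.53), Mal (-0.56 to 0.72) and Ermn (-0.25 to 0.53). The cause was not tested. A fit that leaves a group with 1 library assumes that it varies like the other. Such a fit also leaves the runs, and with them the sexes, uneven between the groups.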
